A study of Arabidopsis thaliana with 12 samples.

Results

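The PYR/PYL proteins are the receptors of the plant hormone abscisic acid (ABA), and 10 of their genes were followed here: PYR1 and PYL1 to PYL9, taken by locus from the 33602 genes in the table of each library. All 10 were among the 22924 genes that passed the filter on low counts. In the textbook pathway a receptor that holds ABA closes over a clade A protein phosphatase 2C (PP2C) and blocks it. The phosphatase then no longer holds back the SnRK2 kinases of subclass III, which phosphorylate the ABF and ABI5 transcription factors and so switch on ABA-responsive genes. Plants make ABA when water is short, and seedlings at low water potential are a classic setting for this pathway.

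Poly-A RNA was sequenced from entire Arabidopsis thaliana seedlings in the Col-0 background, as 12 stranded libraries, 3 in each of 4 groups. HIN1 stress and HIN1 control came from a stable 35S:HIN1 line, in which the constitutive 35S promoter of a plant virus drives AT3G11290 ectopically, and WT stress and WT control came from wild type. Stress seedlings spent 96 h on agar at a water potential of -0.7 MPa, set with polyethylene glycol, after 7 days of growth, and control seedlings spent the same time on fresh medium at -0.25 MPa. HIN1 is known as a partner of HAI1, which is itself a clade A PP2C. A single transformed line stands for the transgene, and the labels report 3 independent experiments and RNA extractions per group. The WT libraries also serve another series that was sequenced at the same time.

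The transgene was visible in every library: HIN1 had 175.6, 194.6 and 210.7 RPKM in HIN1 stress and 139.3, 168 and 138.4 RPKM in HIN1 control, against 11.8 to 13.6 RPKM over the 6 WT libraries. RPKM, reads scaled to gene length and library size, is given as the authors deposited it and is the scale of every level below. The libraries held 58.0 to 68.6 M reads in genes, and log2 CPM correlated across genes at 0.984 to 0.991 within groups. On principal component 3, with 8.53% of the variance, WT control library 1 lay at 47, against 6.18 and -0.247 for WT control libraries 2 and 3. HIN1 stress library 3 lay at 30.1 on the same component, against 7.27 and 6.91 for HIN1 stress libraries 1 and 2. Of 6 check genes of the treatment, 6 rose in HIN1, where 14.7% of all genes tested rose, and 5 rose in WT, where 14.9% rose. The sixth, NCED3, which encodes a key enzyme of ABA synthesis, had a log2 fold change of 0.95 ± 0.380 in WT (adjusted p = 0.0779), and its WT groups overlapped. P5CS1, the proline synthesis enzyme induced by low water potential, rose by 3.38 ± 0.200 on the log2 scale in HIN1 stress against HIN1 control (adjusted p = 1.2e-06, edgeR's quasi-likelihood test) and by 3.28 ± 0.199 in WT stress against WT control (adjusted p = 9.34e-07). RD29B, whose promoter is a standard ABA reporter, rose by 2.86 ± 0.750 in HIN1 (adjusted p = 0.0150) and by 3.10 ± 0.740 in WT (adjusted p = 0.00822).

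The 10 genes fall into 3 subfamilies by sequence. Subfamily III holds PYR1, PYL1, PYL2 and PYL3, which pair with themselves as dimers when no ABA is bound. Subfamily II holds PYL4, PYL5 and PYL6, and subfamily I holds PYL7, PYL8 and PYL9. Members of these last groups are mostly monomers, which need less ABA to act on the phosphatases. In the RefSeq annotation of TAIR10.1, PYR1, PYL2, PYL3 and the members of subfamily II have a single exon, PYL1 has 1 or 2 over 2 transcripts, PYL7 and PYL9 have 3, and PYL8 has 2 or 3. Coding sequences shared 63.2% to 81.4% of aligned bases over the 12 pairs within a subfamily and 57.8% to 66.8% over the 33 pairs between subfamilies. None of the 10 had a read that the deposited tables mark as mapping to several sites, so reads of the members were not shared among them. 

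PYL4, PYL5 and PYL6 moved most with water potential and PYL7 did not fall, so the 250 bases before their annotated gene starts are shown. Capitals mark matches to ACGTG, the core of the ABA-responsive element that ABF and ABI5 factors bind, on either strand. Each is read 5′ to 3′ on the gene's own strand from the RefSeq genome TAIR10.1. The windows are chr2:16049668-16049917 on the plus strand for PYL4, chr5:1608738-1608987 on the plus strand for PYL5 and chr2:16846195-16846444 on the minus strand for PYL6. That of PYL7 is chr4:446728-446977 on the plus strand.
PYL4: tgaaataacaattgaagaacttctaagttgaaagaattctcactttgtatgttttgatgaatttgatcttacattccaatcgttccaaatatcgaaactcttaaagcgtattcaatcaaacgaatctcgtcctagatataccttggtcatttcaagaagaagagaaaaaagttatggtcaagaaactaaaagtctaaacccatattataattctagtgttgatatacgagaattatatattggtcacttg
PYL5: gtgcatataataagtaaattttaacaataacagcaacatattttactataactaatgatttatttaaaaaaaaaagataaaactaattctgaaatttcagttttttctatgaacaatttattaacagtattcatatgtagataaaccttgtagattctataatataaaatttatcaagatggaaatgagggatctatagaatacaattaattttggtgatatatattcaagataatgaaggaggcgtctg
PYL6: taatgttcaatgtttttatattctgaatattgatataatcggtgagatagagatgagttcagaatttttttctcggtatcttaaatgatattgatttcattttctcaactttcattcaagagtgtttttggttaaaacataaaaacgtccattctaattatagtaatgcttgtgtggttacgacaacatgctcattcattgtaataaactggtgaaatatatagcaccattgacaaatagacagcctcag
PYL7: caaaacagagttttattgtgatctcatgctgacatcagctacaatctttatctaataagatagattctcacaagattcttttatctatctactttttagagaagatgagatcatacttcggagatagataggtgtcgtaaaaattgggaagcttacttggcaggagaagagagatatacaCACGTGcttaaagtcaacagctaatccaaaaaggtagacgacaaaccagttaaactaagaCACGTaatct
The search covered the windows of PYL1 to PYL9 and found ACGTG in 2 of these 9, those of PYL3 and PYL7, and in 22.9% of 27443 windows of the same length over all genes. PYL7 had 3 matches, of which 2 are the opposite strands of a single palindrome, 70 bases before the gene start, and the last begins 10 bases before it. PYL3 had a single match 70 bases before its start. CCGAC, the core of the element bound by DREB factors, was in none of the 9 windows and in 12% of all windows. CAATNATTG, bound by class I HD-Zip factors, was in the window of PYL8 and in 0.918% of all windows. A letter match is a description of the sequence and says nothing of binding in these seedlings.

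Most of the receptor genes fell at low water potential in both genotypes, and PYL4, PYL5 and PYL6 fell furthest. In HIN1 stress against HIN1 control, 7 of the 10 fell and PYL7 rose. Over all genes tested in that comparison 27.1% were called at an adjusted p below 0.05, 12.5% lower and 14.7% higher. In WT stress against WT control, 8 of the 10 fell and none rose, where 31.6% of all genes were called, 16.7% lower and 14.9% higher. Without WT control library 1, which stood apart above, 7 of the 10 fell in WT, PYL9 no longer being called. The count was also 7 without WT control library 2 and was 8 without library 3. Over all fits that left out a single library, 5136 to 7546 genes were called in this comparison, against 7239 in the full fit. The median log2 fold change of the 10 was -0.86 in HIN1, against 0.0072 over all genes tested, and -0.87 in WT, against -0.0035 over all genes tested. The libraries of the groups did not overlap, with stress lower, for 7 of the 10 in HIN1 (20.2% of all genes) and for 9 of the 10 in WT (16.6% of all genes). In whole seedlings, fewer cells of a type and less RNA per cell cannot be told apart. On the RPKM scale, which carries no TMM factor, limma called 2804 genes lower and 4569 higher in WT at a pseudocount of 0.1, against 3823 lower and 3416 higher by edgeR, and 7 of the 10 receptors lower.

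**Figure D1:**
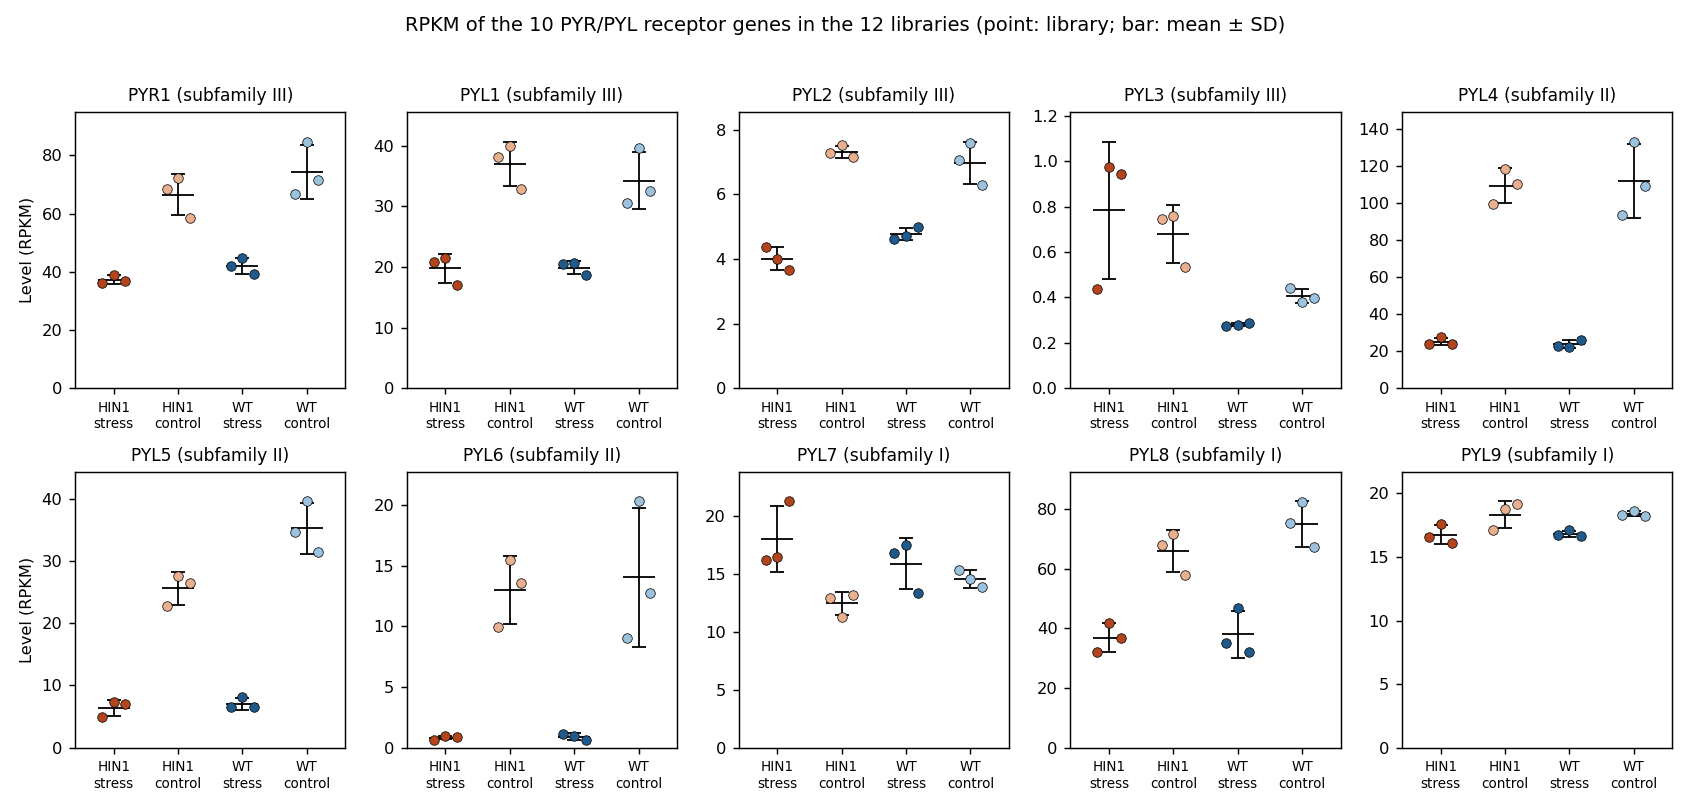
Each panel shows 1 receptor gene, with its level in RPKM on a linear axis from 0; points are libraries and bars are the mean ± SD of 3 libraries in HIN1 stress, HIN1 control, WT stress and WT control. PYL6 lies at 0.640 to 1.125 RPKM in the 6 stress libraries and at 9.04 to 20.3 RPKM in the 6 control libraries, while PYL9 stays between 16.1 and 19.1 RPKM in all 12.

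Within subfamily III, PYR1 (AT4G17870, chr4:9928587-9929875), the receptor first found through the synthetic agonist pyrabactin, had 36.1, 39.0 and 37.0 RPKM in HIN1 stress against 68.5, 72.2 and 58.6 RPKM in HIN1 control, and 42.0, 44.8 and 39.3 RPKM in WT stress against 66.7, 84.8 and 71.6 RPKM in WT control. All stress libraries lay below all control libraries. PYR1 fell by 0.83 ± 0.090 on the log2 scale in HIN1 (adjusted p = 6.05e-05) and fell by 0.89 ± 0.090 in WT (adjusted p = 2.92e-05). PYL1 (AT5G46790, chr5:18983540-18984923), the closest relative of PYR1 in subfamily III with 75.2% identical coding bases, had 20.8, 21.4 and 17.1 RPKM in HIN1 stress against 38.2, 39.9 and 32.9 RPKM in HIN1 control, and 20.5, 20.6 and 18.6 RPKM in WT stress against 30.6, 39.6 and 32.5 RPKM in WT control. Its groups did not overlap either, and it fell by 0.91 ± 0.104 in HIN1 (adjusted p = 9.04e-05) and fell by 0.85 ± 0.104 in WT (adjusted p = 0.000111).

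PYL2 (AT2G26040, chr2:11094258-11095542), a further dimeric receptor, was lower than both in every library, at 4.37, 4.00 and 3.66 RPKM in HIN1 stress against 7.28, 7.51 and 7.16 RPKM in HIN1 control, and 4.63, 4.71 and 4.98 RPKM in WT stress against 7.06, 7.59 and 6.29 RPKM in WT control. It fell by 0.87 ± 0.117 in HIN1 (adjusted p = 0.000263) and fell by 0.62 ± 0.116 in WT (adjusted p = 0.00202), with no overlap of the groups in either genotype. PYL3 (AT1G73000, chr1:27462983-27463968) had the lowest mean RPKM of the 10 in every group, although in HIN1 stress its libraries overlapped those of PYL6. It had 26, 60 and 57 reads in HIN1 stress and 44, 44 and 31 reads in HIN1 control, and 18, 16 and 16 reads in WT stress and 28, 22 and 23 reads in WT control. Its stress libraries all lay below its control libraries in WT, yet neither change was called: the log2 fold change was 0.21 ± 0.294 in HIN1 (adjusted p = 0.646) and -0.60 ± 0.331 in WT (adjusted p = 0.192). The 95% interval for WT ran from -1.33 to 0.12.

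In subfamily II all 3 members fell in both genotypes and no library of a stress group reached a control library. PYL4 (AT2G38310, chr2:16049918-16051356), which had the highest level of the 10 in both control groups, had 24.05, 27.39 and 23.96 RPKM in HIN1 stress against 99.4, 118.7 and 110.5 RPKM in HIN1 control, and 23.0, 22.0 and 26.1 RPKM in WT stress against 93.6, 133.3 and 109.1 RPKM in WT control. It fell by 2.13 ± 0.125 on the log2 scale in HIN1, 4.38-fold (adjusted p = 1.2e-06), and fell by 2.31 ± 0.126 in WT, 4.95-fold (adjusted p = 5.28e-07). PYL5 (AT5G05440, chr5:1608988-1610527), known for drought resistance when overexpressed in Arabidopsis, had 4.9, 7.26 and 6.99 RPKM in HIN1 stress against 22.7, 27.6 and 26.4 RPKM in HIN1 control, and 6.49, 8.07 and 6.50 RPKM in WT stress against 34.6, 39.6 and 31.5 RPKM in WT control. It fell 4.02-fold in HIN1 (log2 fold change -2.01 ± 0.158, adjusted p = 6.92e-06) and 5.27-fold in WT (log2 fold change -2.40 ± 0.159, adjusted p = 1.52e-06).

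PYL6 (AT2G40330, chr2:16844588-16846194), whose protein is known to bind the jasmonate factor MYC2, had 0.678, 0.976 and 0.848 RPKM in HIN1 stress against 9.92, 15.42 and 13.54 RPKM in HIN1 control, and 1.125, 0.997 and 0.640 RPKM in WT stress against 9.04, 20.3 and 12.8 RPKM in WT control. Relative to their mean its control libraries were the most spread of any member, and WT control library 2 was the highest of them. PYL6 fell by 3.96 ± 0.321 on the log2 scale in HIN1, 15.6-fold (adjusted p = 8.08e-06), and fell by 3.99 ± 0.319 in WT, 15.9-fold (adjusted p = 5.4e-06). On log2(RPKM + 1), a scale that understates changes of low genes, limma gave a log2 fold change of -2.91 in each genotype. Among all genes tested, 0.0785% had a lower log2 fold change than PYL6 in HIN1 and 0.24% in WT. For PYL4 the shares were 0.65% in HIN1 and 1.22% in WT, and for PYL5 they were 0.785% in HIN1 and 1.09% in WT.

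Subfamily I divided: PYL8 fell in both genotypes, PYL9 was called lower in WT and not in HIN1, a difference that was not called itself, and PYL7 rose in HIN1. PYL8 (AT5G53160, chr5:21560601-21562709), which promotes lateral root growth through the factor MYB77, had 32.1, 42.0 and 36.8 RPKM in HIN1 stress against 68.0, 71.6 and 58.0 RPKM in HIN1 control, and 35.2, 46.9 and 32.0 RPKM in WT stress against 75.3, 82.6 and 67.3 RPKM in WT control. The groups did not overlap, and PYL8 fell by 0.84 ± 0.142 in HIN1 (adjusted p = 0.00124) and fell by 1.05 ± 0.142 in WT (adjusted p = 0.000227). PYL9 (AT1G01360, chr1:141870-143261), linked to leaf senescence under drought, had 16.6, 17.6 and 16.1 RPKM in HIN1 stress against 17.1, 18.7 and 19.1 RPKM in HIN1 control, and 16.8, 17.1 and 16.6 RPKM in WT stress against 18.3, 18.6 and 18.2 RPKM in WT control. Its log2 fold change was -0.14 ± 0.062 in HIN1 (adjusted p = 0.126), where the groups overlapped, and it fell by 0.20 ± 0.062 in WT (adjusted p = 0.0303), where they did not. The WT call for PYL9 was lost without any of the libraries WT stress 1, 2 or 3 or WT control 1 or 2, with adjusted p up to 0.113, and with no filter on low counts (adjusted p = 0.0507) or with limma on RPKM (adjusted p up to 0.0985). In HIN1 the reverse occurred: PYL9 was called without HIN1 control library 1 (log2 fold change -0.19, adjusted p = 0.0492).

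PYL7 (AT4G01026, chr4:446978-448511) had 16.2, 16.5 and 21.3 RPKM in HIN1 stress against 12.9, 11.3 and 13.1 RPKM in HIN1 control, and 16.8, 17.4 and 13.3 RPKM in WT stress against 15.3, 14.6 and 13.8 RPKM in WT control. The HIN1 groups did not overlap and the WT groups did. PYL7 rose by 0.53 ± 0.134 on the log2 scale in HIN1, 1.44-fold (adjusted p = 0.0129), and its log2 fold change in WT was 0.05 ± 0.133 (adjusted p = 0.801), with a 95% interval from -0.24 to 0.34. Without HIN1 control library 2 the rise was 0.44 and no longer called (adjusted p = 0.0569). PYL7 is overlapped on the opposite strand by AT4G01030 and AT4G03845 over 840 bases, and since the use of strand in counting is not given in the sources used here, reads of PYL7 and of these genes could not be told apart. AT4G01030 itself had 334 to 489 reads in HIN1 stress, 383 to 410 in HIN1 control, 377 to 435 in WT stress and 330 to 431 in WT control, and its log2 fold change was -0.05 ± 0.154 in HIN1 (adjusted p = 0.846) and -0.0024 ± 0.154 in WT (adjusted p = 0.994). AT4G03845 was not analysed here. No other member overlaps a neighbouring gene in this annotation, TAIR10.1, from which all gene positions are given.

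**Figure D2:**
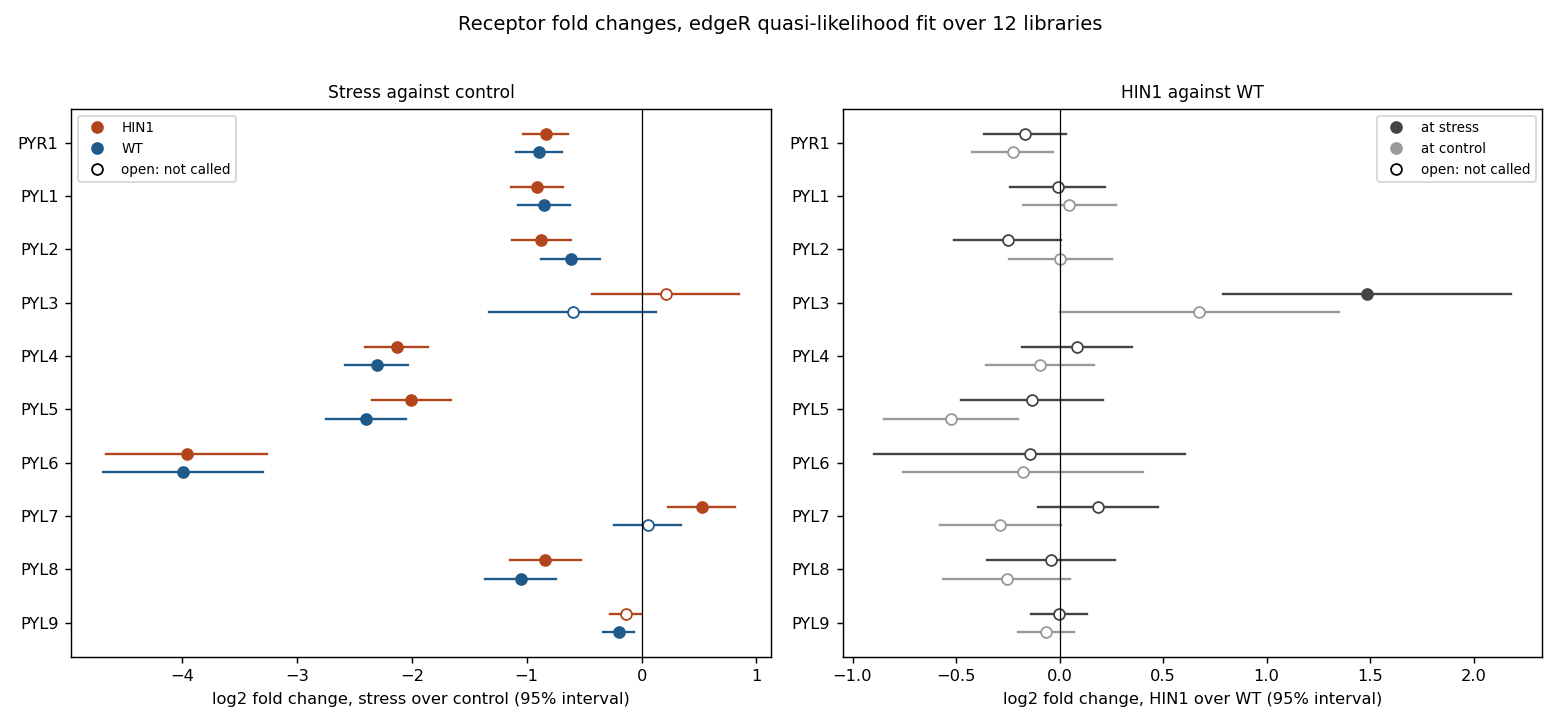
Log2 fold changes of the 10 receptors on the x axis with 95% intervals from edgeR's quasi-likelihood fit: stress over control in HIN1 and in WT on the left, HIN1 over WT at stress and at control on the right; filled points were called at an adjusted p below 0.05. PYL4, PYL5 and PYL6 lie furthest to the left in both genotypes, and PYL3 at stress is the single filled point between genotypes.

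The fall of PYL4, PYL5 and PYL6 changed the order of the receptor levels. PYL4 led in both control groups with 109.5 ± 9.70 RPKM in HIN1 control and 112 ± 20.0 RPKM in WT control (SD, n = 3), above every library of the next gene. PYR1 and PYL8 came next at 66.5 ± 7.02 and 65.9 ± 7.02 RPKM in HIN1 control and at 74.4 ± 9.32 and 75.1 ± 7.65 RPKM in WT control, and their libraries overlapped in both. Under stress PYR1 and PYL8 led, again overlapping, with 37.3 ± 1.48 and 36.9 ± 4.97 RPKM in HIN1 stress and 42.0 ± 2.76 and 38.0 ± 7.87 RPKM in WT stress. PYL4 followed in both stress groups, at 25.1 ± 1.95 RPKM in HIN1 and 23.7 ± 2.11 RPKM in WT, clear of its neighbours. In HIN1 stress PYL1, PYL7 and PYL9 followed with each overlapping the next, and in WT stress PYL1 followed alone, with PYL9 and PYL7 overlapping below it. PYL5, PYL2, PYL6 and PYL3 closed the order in both stress groups. In HIN1 control PYL1, PYL5 and PYL9 came after PYR1 and PYL8 without overlap, and in WT control PYL5 and PYL1 overlapped above PYL9. PYL6 and PYL7 overlapped in both control groups, above PYL2 and PYL3.

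Summed over the 10 genes, receptor RPKM was 165.9 ± 10.6 in HIN1 stress against 356.2 ± 24.1 in HIN1 control, and 169.3 ± 12.6 in WT stress against 385.3 ± 48.9 in WT control (SD, n = 3). The ratio of the means was 2.15-fold lower in HIN1 stress and 2.28-fold lower in WT stress, and no stress library reached a control library. The sum is a description of transcript level per length and carries no test. Subfamily II accounted for most of the difference: its 3 genes summed to 32.4 ± 3.04 RPKM in HIN1 stress against 148.1 ± 15.0 RPKM in HIN1 control, and to 31.7 ± 1.38 RPKM in WT stress against 161.2 ± 28.8 RPKM in WT control. Their share of all receptor RPKM was 19.5% ± 0.585 in HIN1 stress against 41.6% ± 3.03 in HIN1 control, and 18.8% ± 2.03 in WT stress against 41.7% ± 2.38 in WT control. Subfamily I took 43.2% ± 1.76 in HIN1 stress against 27.2% ± 1.11 in HIN1 control, and 41.6% ± 2.72 in WT stress against 28.2% ± 2.52 in WT control. Subfamily III took 37.4% ± 1.96 in HIN1 stress against 31.3% ± 2.05 in HIN1 control, and 39.6% ± 0.999 in WT stress against 30.1% ± 0.333 in WT control. PYL7 alone made up 10.9% ± 1.86 in HIN1 stress against 3.52% ± 0.502 in HIN1 control, and 9.35% ± 0.850 in WT stress against 3.82% ± 0.535 in WT control.

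The genome holds 4 further members of the family, PYL10 to PYL13, and all 4 were near the limit of detection. PYL10 had 0 to 8 reads per library, PYL11 had 2 to 10, and PYL13 had 0 to 5, and none of these 3 passed the filter on low counts. PYL12 was tested. It had 0, 2 and 3 reads in HIN1 stress against 8, 10 and 11 in HIN1 control, and 2, 2 and 2 reads in WT stress against 11, 12 and 14 in WT control. Since PYL12 passed the filter only through its control libraries, no test of stress against control is given for it. At so few reads its fold change is not given either.

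The genes of the phosphatases that the receptors act on moved the other way. Of the 9 clade A PP2C genes, 7 rose in HIN1 and 7 rose in WT, and none fell, where 14.7% of all genes rose in HIN1 and 14.9% in WT. HAI2 rose by 4.48 ± 0.267 in HIN1 (adjusted p = 1.2e-06) and by 4.56 ± 0.263 in WT (adjusted p = 7.02e-07). HAI1 rose by 2.47 ± 0.221 in HIN1 (adjusted p = 1.69e-05) and by 2.81 ± 0.224 in WT (adjusted p = 5.39e-06). PP2CA, which holds back guard cell signalling, rose by 0.98 ± 0.102 in HIN1 (adjusted p = 4.62e-05) and by 0.98 ± 0.101 in WT (adjusted p = 3.64e-05). The remaining AHG1 and HAI3 stood below 1 RPKM in every group and were not called. Summed over the 9 genes, phosphatase RPKM was 210.4 ± 9.97 in HIN1 stress against 107.0 ± 3.32 in HIN1 control, and 235.8 ± 46.4 in WT stress against 117.7 ± 9.40 in WT control (SD, n = 3).

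Set against each other within a library, receptor RPKM was below phosphatase RPKM in all 6 stress libraries and above it in all 6 control libraries. The ratio of the sums was 0.757, 0.871 and 0.742 in HIN1 stress against 3.29, 3.46 and 3.22 in HIN1 control, and 0.715, 0.646 and 0.830 in WT stress against 2.75, 4.05 and 3.12 in WT control. The mean ratio was 4.21-fold lower in HIN1 stress and 4.53-fold lower in WT stress. These are ratios of transcript levels, and protein was not measured.

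**Figure D3:**
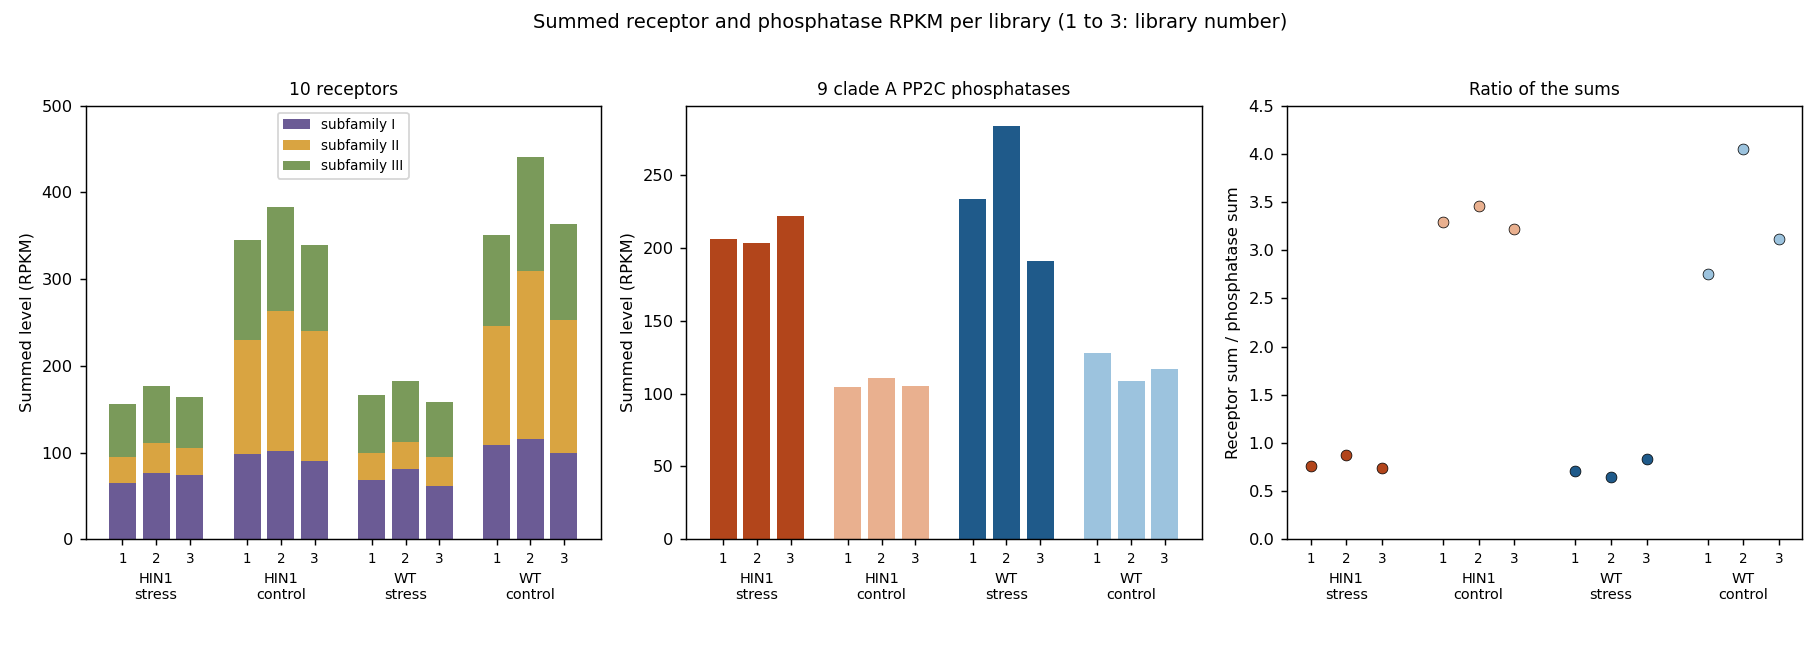
Left, summed RPKM of the 10 receptors per library, stacked by subfamily; middle, summed RPKM of the 9 clade A PP2C genes; right, the ratio of the sums, with libraries 1 to 3 of HIN1 stress, HIN1 control, WT stress and WT control along each x axis. Receptor sums lie at 156.1 to 183.0 RPKM in the stress libraries and 340.0 to 441.3 RPKM in the control libraries, and the ratio is below 1 in every stress library.

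Further down the pathway, most of the kinase and bZIP genes rose and none fell. Of the 3 SnRK2 kinases of subclass III, 3 rose in HIN1 and 2 rose in WT, beside the same 14.7% and 14.9% of all genes. SNRK2.6, the guard cell kinase also known as OST1, rose by 0.43 ± 0.088 in HIN1 (adjusted p = 0.00394) and by 0.44 ± 0.088 in WT (adjusted p = 0.00286). SNRK2.2 rose by 0.18 ± 0.061 in HIN1 (adjusted p = 0.0446) and by 0.20 ± 0.061 in WT (adjusted p = 0.0240). SNRK2.3 rose by 0.33 ± 0.098 in HIN1 (adjusted p = 0.0277), and in WT its log2 fold change was 0.05 ± 0.098 (adjusted p = 0.722). The difference between these responses of SNRK2.3 was not called. All 5 of ABF1 to ABF4 and ABI5 rose in both genotypes. ABF2 rose by 0.74 ± 0.076 in HIN1 (adjusted p = 4.15e-05) and by 0.66 ± 0.076 in WT (adjusted p = 7.1e-05), and ABF1 by 0.54 ± 0.087 in HIN1 (adjusted p = 0.000888) and by 0.45 ± 0.087 in WT (adjusted p = 0.00259). ABI5, known for its part in seed germination, rose by 1.41 ± 0.234 in HIN1 (adjusted p = 0.00111) and by 1.07 ± 0.235 in WT (adjusted p = 0.005). None of these 17 phosphatase, kinase and bZIP genes was called between the genotypes at either water potential. Over all genes tested, 2.76% were called between the genotypes at control and 3.42% at stress.

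**Figure D4:**
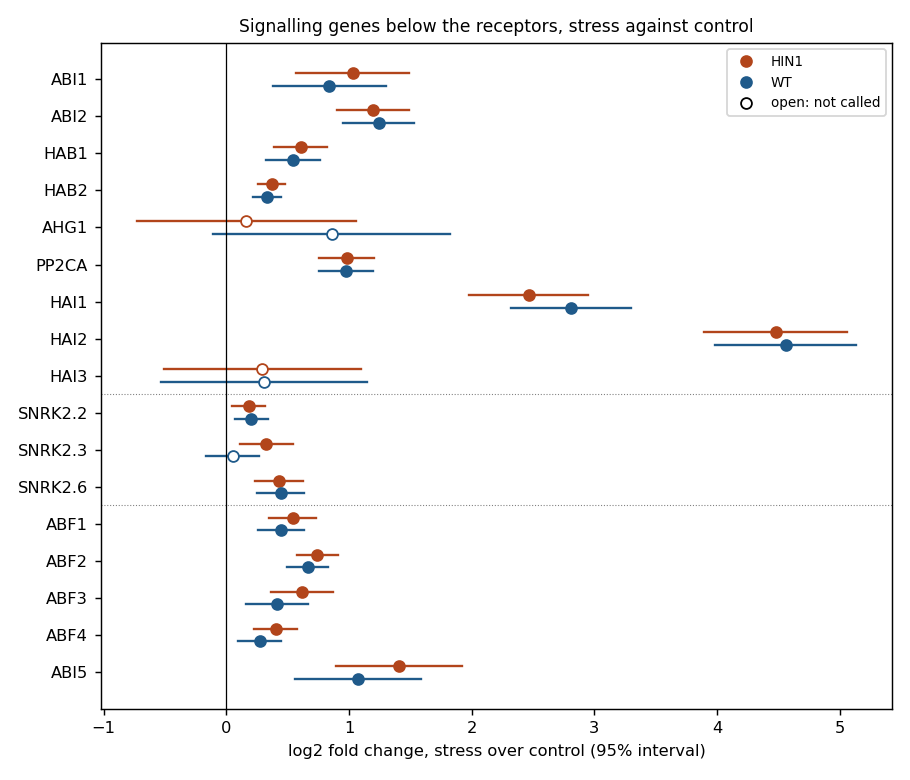
Log2 fold changes, stress over control, of the 9 clade A PP2C genes (top), 3 SnRK2 kinases (middle) and 5 bZIP factors (bottom) in HIN1 and in WT, with 95% intervals; filled points were called at an adjusted p below 0.05. All points lie to the right of 0, and HAI2 lies furthest right at 4.48 in HIN1 and 4.56 in WT.

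Markers of some cell types moved with the treatment, and their counts stand beside 12.5% of all genes lower and 14.7% higher in HIN1, and 16.7% lower and 14.9% higher in WT. Guard cell markers fell in 3 of 6 in HIN1, and in WT 4 of 6 fell and 1 rose, with summed levels of 24.7 to 32.7 RPKM in HIN1 stress against 35.0 to 37.2 RPKM in HIN1 control, and 28.8 to 32.5 RPKM in WT stress against 39.7 to 43.5 RPKM in WT control. Photosynthetic markers were called in 0 of 6 in HIN1 and fell in 4 of 6 in WT, with sums of 17300 to 18600 RPKM in HIN1 stress against 17700 to 19600 RPKM in HIN1 control, and 16600 to 18100 RPKM in WT stress against 18800 to 22500 RPKM in WT control. Of 6 root hair markers 0 were called in HIN1 and 3 rose in WT, with sums of 26.6 to 33.1 RPKM in HIN1 stress against 23.9 to 28.8 RPKM in HIN1 control, and 29.7 to 40.5 RPKM in WT stress against 8.29 to 26.8 RPKM in WT control. Of 7 root markers 1 rose and 1 fell in HIN1 and 2 rose in WT, with sums of 54.2 to 61.2 RPKM in HIN1 stress against 65.1 to 72.0 RPKM in HIN1 control, and 51.6 to 57.7 RPKM in WT stress against 32.0 to 63.4 RPKM in WT control. The WT control libraries differed among themselves: root marker sums were 34.9, 32.05 and 63.4 RPKM and root hair marker sums were 8.29, 12.05 and 26.8 RPKM in libraries 1, 2 and 3. Of 5 seed markers EM1 rose in each genotype. For no marker was the response to stress called different between the genotypes, where 0.157% of all genes were called. In HIN1 control against WT control 1 guard cell marker was called, lower in HIN1 (0.576% of all genes), and no other marker. Groups did not overlap, lower in HIN1, for 4 guard cell, 4 photosynthetic, 1 root and 1 seed marker (5.79% of all genes). Higher in HIN1 without overlap were 1 guard cell, 2 root and 1 root hair marker (13.3% of all genes). No marker was called between the genotypes at stress. No marker was at 0 in all libraries of a group. The part of cell type shares in the receptor changes was not tested.

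Few receptors were called between HIN1 and WT. In HIN1 control against WT control, 0 of the 10 were called by edgeR, and DESeq2 called 1 of the 10 among 1542 genes in all. By edgeR, 2 of the 10 had an unadjusted p below 0.05, as did 19% of all genes tested. Over all genes tested 2.76% were called in that comparison, 0.576% lower and 2.19% higher in HIN1, which is 132 and 501 genes; limma on RPKM at a pseudocount of 0.1 gave 627 higher and 61 lower. Without WT control library 3, whose root and root hair marker sums were above those of libraries 1 and 2, 2288 genes and 1 receptor were called, against 348 genes and 0 receptors without library 1. The receptor that DESeq2 called was PYL5 (adjusted p = 0.0175), with a log2 fold change of -0.52 ± 0.149 by edgeR (adjusted p = 0.0894) and no overlap between the HIN1 and WT control libraries listed above. Across the alternatives its edgeR adjusted p reached 0.0328 without WT control library 3, where the log2 fold change was -0.62, and 0.0450 without HIN1 stress library 1. In the authors' deposited table PYL5 had a log2 fold change of -0.45 with an adjusted p of 0.00305, the single receptor below 0.05 there. PYR1 had a log2 fold change of -0.23 ± 0.089 with an unadjusted p of 0.0265 (adjusted p = 0.201). The groups did not overlap for PYL5 and PYL7, lower in HIN1 (5.79% of all genes), and for PYL3, higher in HIN1 (13.3% of all genes).

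At stress, PYL3 was higher in HIN1 and was the single receptor called between the genotypes, where 3.42% of all genes were called and 3.23% were called higher. PYL3 had 0.436, 0.973 and 0.946 RPKM in HIN1 stress against 0.276, 0.276 and 0.289 RPKM in WT stress, and every HIN1 library lay above every WT library (10.1% of all genes). It was 2.80-fold higher, a log2 fold change of 1.48 ± 0.318 (adjusted p = 0.0218), on the 16 to 60 reads per library given above. That call was lost without HIN1 stress library 2 (1.32, adjusted p = 0.105), without HIN1 stress library 3 (1.31, adjusted p = 0.1003) and without any WT stress library (adjusted p 0.0719 to 0.0987). It was also lost in a fit of these 6 libraries alone (1.49, adjusted p = 0.0900) and in a fit with the replicate number as a block (1.46, adjusted p = 0.0538), and on log2(RPKM + 1) the difference was 0.46. The authors' deposited table gave PYL3 a log2 fold change of 0.28 with an adjusted p of 0.0427, and no other receptor below 0.05. The standard error for PYL3 there was 0.0887, against 0.318 by edgeR, so the sizes of these changes were not compared. PYR1 and PYL2 did not overlap between the genotypes, lower in HIN1 stress (6.06% of all genes), with log2 fold changes of -0.17 ± 0.090 (adjusted p = 0.617) and -0.25 ± 0.118 (adjusted p = 0.495). At control PYL3 had 0.745, 0.761 and 0.533 RPKM in HIN1 control against 0.441, 0.380 and 0.396 RPKM in WT control, and a log2 fold change of 0.67 ± 0.309 (adjusted p = 0.263).

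The stress response itself was not called different between the genotypes for any receptor. In the interaction, the HIN1 response less the WT response, 0 of the 10 were called by edgeR and 0 by DESeq2. Of all genes, edgeR called 0.157%, 0.00436% lower and 0.153% higher. Among the 10, 1 had an unadjusted p below 0.05 by edgeR, as did 9.17% of all genes tested. That 1 was PYL7, with a difference of 0.47 ± 0.188 on the log2 scale, a 95% interval from 0.06 to 0.89 and an adjusted p of 0.503. The difference for PYL3 was 0.81 ± 0.443 (adjusted p = 0.594), with an interval from -0.16 to 1.78. For PYL4 it was 0.18 ± 0.171, with an interval from -0.20 to 0.55, for PYL5 it was 0.39 ± 0.216, from -0.08 to 0.86, and for PYL6 it was 0.03 ± 0.438, from -0.93 to 0.99. The interval for PYL9 was the narrowest, from -0.13 to 0.25 around 0.06. Each is a 95% interval for 1 gene alone, from an approximate standard error and a single transgenic line, and is not adjusted over the 10. At this depth and replication the intervals are widest for PYL3 and PYL6.

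The likeness of the receptors to each other over the 12 libraries was measured as the mean absolute difference of log2 CPM after centring each gene on its own mean. PYR1 and PYL8 were closest, at 0.105, although they belong to different subfamilies, and PYL4 and PYL5 stood 0.207 apart. PYL6 was 0.851 from its nearest member, PYL4, PYL3 was 0.505 from PYL1, and PYL7 and PYL9 were 0.238 apart. Among all genes that averaged 5 CPM or more, the 3 most like PYR1 were AT5G35732 at 0.0769, AT1G72130 at 0.0814 and NRT1.1, the dual-affinity nitrate transporter, at 0.0869. Those most like PYL4 were AT1G27020 at 0.147, AT1G22690 at 0.156 and AT2G45180 at 0.160. For PYL8 they were PYR1, then RPT2, which acts in phototropism, at 0.117 and the lipid transfer protein gene LTP5 at 0.121. These are descriptions over 12 libraries that share 4 group means.

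For WT stress against WT control the authors' deposited table had 7 of the 10 receptors below an adjusted p of 0.05, all lower. The share of all genes below 0.05 in that table was not counted here. PYL9 was not among the 7, with a log2 fold change of -0.19 and an adjusted p of 0.0715 in the authors' deposited table. PYL6 had a log2 fold change of -3.40 in the same table.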

How the data were processed

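The authors deposited 1 table per library. Per the file headers these hold reads per gene, which are expected counts (4.09% to 4.56% of genes held fractional values), RPKM per gene and the fraction of multiply mapped reads. The reads went through CASAVA, bcl2fastq 1.8.4, Trimmomatic 0.35 and Bowtie2 on TAIR10, per the submitters' processing notes. Which tool counted them, and whether by strand, is not given in the sources used here. Also deposited by the authors were 3 comparison tables, with a log2 fold change, its standard error, a p-value with its adjusted p-value, and a mean normalised signal per gene, per the file headers.

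The deposited counts were rounded and fitted with edgeR 4.0.16 in R 4.3.3: filterByExpr (minimum count 10, 22924 of 33602 genes kept), TMM factors (0.947 to 1.033), 1 quasi-likelihood fit of all 12 libraries with 8 residual degrees of freedom, two-sided tests and Benjamini-Hochberg adjustment over all genes kept, called below 0.05. Every adjusted p is from edgeR's quasi-likelihood test unless another tool is named. Errors beside log2 fold changes are approximate standard errors, the absolute change divided by the square root of F. The script was tested on simulated data. Alternatives used DESeq2 1.42.0, limma 3.58.1 on log2 RPKM, other scalings and filters, a replicate block and leaving out each library. Each p-value reflects the variation among 3 experiments on a single line of each genotype. Promoter windows and gene models came from the RefSeq annotation of TAIR10.1. The window of PYR1 is not reported here.

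The members and the lists were chosen with earlier results of these data known. Named genes were all 10 members, PYL10 to PYL13, HIN1, P5CS1, RD29B, up to 3 called genes of each pathway list by adjusted p, and the 3 genes most like the member of highest level in each subfamily. The 3 comparisons with the authors' tables use their values as deposited. The shares of all genes below 0.05 in those tables were not counted here. Their log2 fold changes may be estimated otherwise than by edgeR, so sizes were not compared.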

Additional observations from a re-analysis of the deposited data

How the results depend on the processing

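Of 990 receptor values under alternatives, 939 kept their direction and their side of the threshold, 16 lost a call, 4 gained one and 31 changed direction. Many of the 990 could hardly change, so the total is no measure of robustness. No receptor had reads at several sites to remove, and some fits left out a library outside the groups compared. Values that were never called are also counted. The summed receptor RPKM kept its log2 ratio under every alternative within the spread between libraries. It was -1.15 to -1.05 in HIN1 and -1.25 to -1.08 in WT when single libraries were left out. With RPKM rescaled by the TMM factors it was -1.11 in HIN1 and -1.26 in WT. For HIN1 control against WT control that rescaling moved it from -0.11 to -0.18. Removal of reads at several sites could not change these sums. The number of genes called in HIN1 control against WT control was 633, against 1542 with DESeq2, 300 in a fit of those groups alone and 348 to 2288 without single libraries, the highest without WT control library 3. In the interaction it was 36, against 214 with DESeq2, 104 and 159 with limma on RPKM at pseudocounts of 0.1 and 1, and 12 to 238 without single libraries, again highest without WT control library 3. The cause was not tested. Receptors called numbered 0 in HIN1 control against WT control, 1 with DESeq2 and 0 to 1 without single libraries. In HIN1 stress against WT stress the number was 1, against 0 with the replicate block, 0 in a fit of those groups alone and 0 to 1 without single libraries. All genes called there numbered 785, against 536 to 852 without single libraries and 725 to 1054 under the other alternatives.

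The replicate numbers were not taken as pairs, since the labels tie no number to a shared batch. Deviations of same-numbered libraries correlated at -0.11 to 0.195, against -0.198 to 0.148 for libraries of different numbers. Of 12 libraries, 6 correlated best with a library of their own number, although such partners were fewer than those of other numbers. These correlations do not decide whether the numbers are pairs. Reads from chloroplast genes were highest in library 3 of every group, at 0.408% to 0.750% against 0.141% to 0.263% in libraries 1 and 2. This is a hint from the data, not from the design, that libraries of 1 number may share something. With the replicate block PYL3 in HIN1 stress against WT stress had a log2 fold change of 1.46 (adjusted p = 0.0538).

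No value that reversed was called. With limma on RPKM at pseudocounts of 0.1 and 1, the interaction was -0.0081 and -0.0064 for PYR1, -0.049 and -0.0027 for PYL6, and -0.00052 and -0.00050 for PYL9, and with the replicate block it was -0.041 for PYL6. Without single libraries the interaction ran from -0.076 to 0.11 for PYR1, from -0.21 to 0.021 for PYL1 and from -0.37 to 0.24 for PYL6. PYL7 in WT stress against WT control ran from -0.021 to 0.16. In HIN1 control against WT control the ranges were -0.0089 to 0.19 for PYL1, -0.085 to 0.090 for PYL2, -0.18 to 0.075 for PYL4 and -0.39 to 0.22 for PYL6. In HIN1 stress against WT stress they were -0.057 to 0.068 for PYL1, -0.22 to 0.027 for PYL5, -0.33 to 0.018 for PYL6, -0.14 to 0.14 for PYL8 and -0.025 to 0.0073 for PYL9. Depth limits PYL3, at 16 to 60 reads per library, and PYL10 to PYL13.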
